A study of Homo sapiens with 8 samples.

Results

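MRC5 is an established line of human diploid fibroblasts from lung, and the unexposed cells of this study, given solvent in place of treatment, are described here by the genes whose probes gave the strongest signal. They were the 3 arrays labelled mock at 12 h, of 8 arrays in all, and their probe sets were ranked by the mean log2 signal without the control probe sets. The study asked how the transcripts of MRC5 change after exposure to 8-oxoguanine, an oxidised form of the base guanine, at 10 µM, with a treated array and a mock array at 6 h and, at 12 h, 3 arrays of either kind. No treated array was used. The mock 6 h array, which is of a larger array type, served only for a check of the ranks. All of the cells shared one culture condition, EMEM medium with fetal bovine serum and antibiotics, and the labels name no genetic change. The labels call the mock 12 h samples technical replicates by extract, extracts 1 to 3, and nothing says that they came from separate cultures, so the spread between them may be technical. The labelled time of 12 h was used, which the descriptions repeat, although the treatment text names 6 h throughout.

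Fibroblasts build and repair the collagen-rich matrix of connective tissue. They secrete procollagen, which is hydroxylated and folded in the endoplasmic reticulum and cross-linked outside the cell, together with matrix glycoproteins, proteoglycans and the proteases and inhibitors that govern turnover. In culture on a stiff surface with serum they divide and carry stress fibres of actin, myosin and their partners.

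The arrays measured 8746 probe sets, of which 7840 named a single gene, giving 7700 genes when each gene was represented by its brightest probe set. Signal is the deposited linear intensity. A percentile is the place of a probe set's mean log2 signal among the 8746. Genes at or above the 90th percentile, a signal of 1585, are called bright, and genes below the 40th percentile, a signal of 94.2, are called dim. By these limits 9.66% of all named genes were bright and 39.3% were dim. Probe sets bind their targets with different strength, so these are ranks of signal and not of the number of transcripts, and a dim probe set does not show that a gene is silent. Probe sets whose names end in _s_at or _x_at can bind transcripts of close relatives, which applies to most ribosomal protein, actin and metallothionein probe sets.

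The first genes read were 6 fibroblast markers, COL1A1, COL1A2, VIM, FN1, TIMP1 and LUM. They were chosen with earlier results of these data known, so they are no independent check of the label. COL1A2, a chain of type I collagen, gave signals of 19254, 23676 and 20775 in extracts 1, 2 and 3. TIMP1, an inhibitor of matrix metalloproteinases, gave 16775, 20185 and 17156. The intermediate filament gene VIM gave 16377, 21604 and 18262, and COL1A1, the other type I collagen chain, 15814, 17508 and 16384. These 4 genes ranked 2, 6, 4 and 11 among the 7700 genes, and extract 2 had the highest signal for each of them. LUM, which encodes the small proteoglycan lumican, lay at the 47.9 percentile with signals of 133, 176 and 121, so it was neither bright nor dim. FN1 was not analysed here at 12 h because no probe set carried its symbol alone. On the mock 6 h array, 5 of 6 FN1 probe sets stood at or above the 98.99 percentile of all 22215 probe sets of that array. Among 19 further fibroblast genes that were measured, 11 were bright and none was dim, with a median percentile of 91.1. COL6A3, SERPINH1, SPARC, THY1 and FBN1 led this list, and the transcription factor TWIST1 was its lowest member at the 52.5 percentile. The dimmest of the surface and matrix members, PDGFRB, still lay at the 84.1 percentile.

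Start-site sequences are shown for the brightest genes of protein synthesis, because a run of pyrimidines at the first transcribed base is the known mark of the ribosomal protein genes and their translation factors. Each line gives 30 bases before and 15 from the annotated start on the gene's own strand, from the RefSeq promoter table of build GRCh38.p14. Capitals mark the start base C together with the unbroken C or T bases after it, where at least 4 such bases follow. The windows are RPL41 at chr12:56116603-56116647, plus strand, RPL37A at chr2:216498814-216498858, plus strand, RPS18 at chr6:33272045-33272089, plus strand, RPS14 at chr5:150449725-150449769, minus strand, EEF1A1 at chr6:73521018-73521062, minus strand and TPT1 at chr13:45341169-45341213, minus strand. RPS4X at chrX:72277234-72277278, minus strand, GAPDH at chr12:6535234-6535278, plus strand and VIM at chr10:17228211-17228255, plus strand are bright genes whose listed start holds no such run.
RPL41: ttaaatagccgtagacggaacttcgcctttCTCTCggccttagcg
RPL37A: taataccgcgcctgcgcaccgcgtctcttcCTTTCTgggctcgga
RPS18: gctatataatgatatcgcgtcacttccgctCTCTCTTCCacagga
RPS14: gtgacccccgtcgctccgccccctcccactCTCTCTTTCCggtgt
EEF1A1: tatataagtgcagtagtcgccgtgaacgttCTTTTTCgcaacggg
TPT1: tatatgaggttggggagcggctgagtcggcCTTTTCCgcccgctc
RPS4X: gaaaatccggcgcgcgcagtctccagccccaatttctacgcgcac
GAPDH: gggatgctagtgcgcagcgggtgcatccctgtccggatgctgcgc
VIM: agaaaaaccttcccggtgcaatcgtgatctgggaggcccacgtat

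Such a pyrimidine start was found in 31 of 43 ribosomal protein genes with an entry in the table (72.1%), namely 16 of 23 of the large subunit and 15 of 20 of the small subunit, and in 9 of 27 translation factors (33.3%). It was found in 6.95% of the 6200 named genes with an entry and in 4.07% of all 35116 promoters in the table. The search used the gene strand only, and a gene with several listed starts was counted if any of them had the feature. By signal, the share was 3.97% below the 20th percentile, 7.46% between the 60th and 80th, 16.7% between the 95th and 99th and 37.7% above the 99th, where 20 of 53 genes had it. Without ribosomal proteins and translation factors it was 1 of 25 genes (4.0%) above the 99th percentile and 11.6% between the 95th and 99th. Of the 20 genes with a pyrimidine start above the 99th percentile, all but 1 were thus ribosomal proteins or translation factors.

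**Figure D1:**
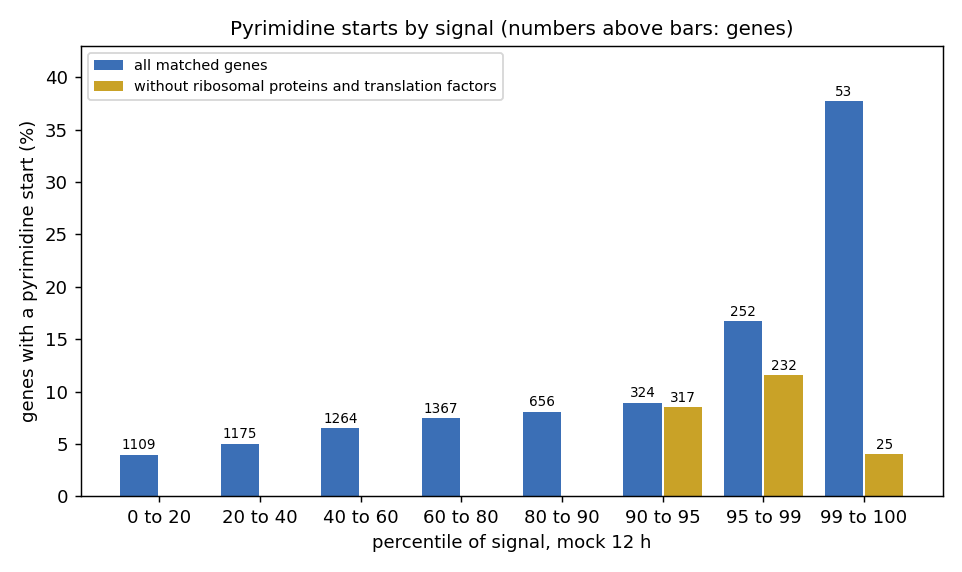
Share of genes with a pyrimidine start (vertical axis, %) by percentile of signal in mock 12 h (horizontal axis), with the number of genes above each bar. Blue bars are all genes matched to the RefSeq promoter table and yellow bars leave out ribosomal proteins and translation factors. The blue bar reaches 37.7% in the top hundredth, where the yellow bar is at 4.0%.

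Promoter stretches are also shown for the metallothioneins, since MT2A had the highest mean signal of any gene on the arrays. Metallothioneins bind zinc and copper and are known to be induced through metal response elements in their promoters. Stretches of 180 bases that end 10 bases past the start of MT2A (chr16:56608414-56608593, plus strand) and of MT1X (chr16:56682300-56682479, plus strand) follow, with the core TGCGCNC or TGCACNC in capitals on either strand, where GNGCGCA and GNGTGCA are the same cores read on the other strand.
MT2A: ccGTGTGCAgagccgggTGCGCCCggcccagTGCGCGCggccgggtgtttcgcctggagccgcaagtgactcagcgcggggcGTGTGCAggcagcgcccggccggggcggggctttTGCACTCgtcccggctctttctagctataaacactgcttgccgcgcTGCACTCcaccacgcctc
MT1X: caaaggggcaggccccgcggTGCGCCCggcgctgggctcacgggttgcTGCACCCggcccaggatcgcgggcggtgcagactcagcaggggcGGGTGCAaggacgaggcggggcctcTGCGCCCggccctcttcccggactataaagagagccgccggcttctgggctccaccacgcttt
The printed MT2A stretch held 6 runs in capitals and that of MT1X held 4. All 3 metallothioneins with an entry had a core in the 250 bases before the start, as had 36.9% of the 6200 named genes, so the core is common. MT2A gave signals of 19489.9, 24578 and 20542, with extract 2 highest, and ranked first in the mean and at or above the 99.98 percentile on each array. MT1X, a close relative, gave 9714, 12576 and 9255 and ranked 40 by the brighter of its 2 probe sets. The other lay at the 92.97 percentile, with a mean signal of 2134.

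The 50 brightest genes were mostly genes of protein synthesis. They included 24 ribosomal proteins, 12 of each subunit, and 4 translation factors. EEF1A1, which brings aminoacyl-tRNA to the ribosome, ranked 5 at 18481 ± 1964 (SD, n = 3 extracts), and RPL37A and RPL41, 2 small proteins of the large subunit, ranked 3 and 7. Glycolysis gave 4 of the 50 genes, GAPDH, LDHA, PKM and ALDOA. Collagens gave 3, COL1A2, COL1A1 and COL6A3. The matrix protein TGFBI, which binds collagen and integrins, ranked 9 at 16844 ± 1506, and the secreted lectin LGALS1 ranked 10 at 16832 ± 1974. TMSB10 and CFL1, which respectively bind actin monomers and sever actin filaments, ranked 14 and 19. In all, 42 genes were among the brightest 50 of every array. In the brightest 100 genes, 37 were ribosomal proteins and 18 were in none of the functional gene lists, among them CAV1, a cell type marker.

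**Figure D2:**
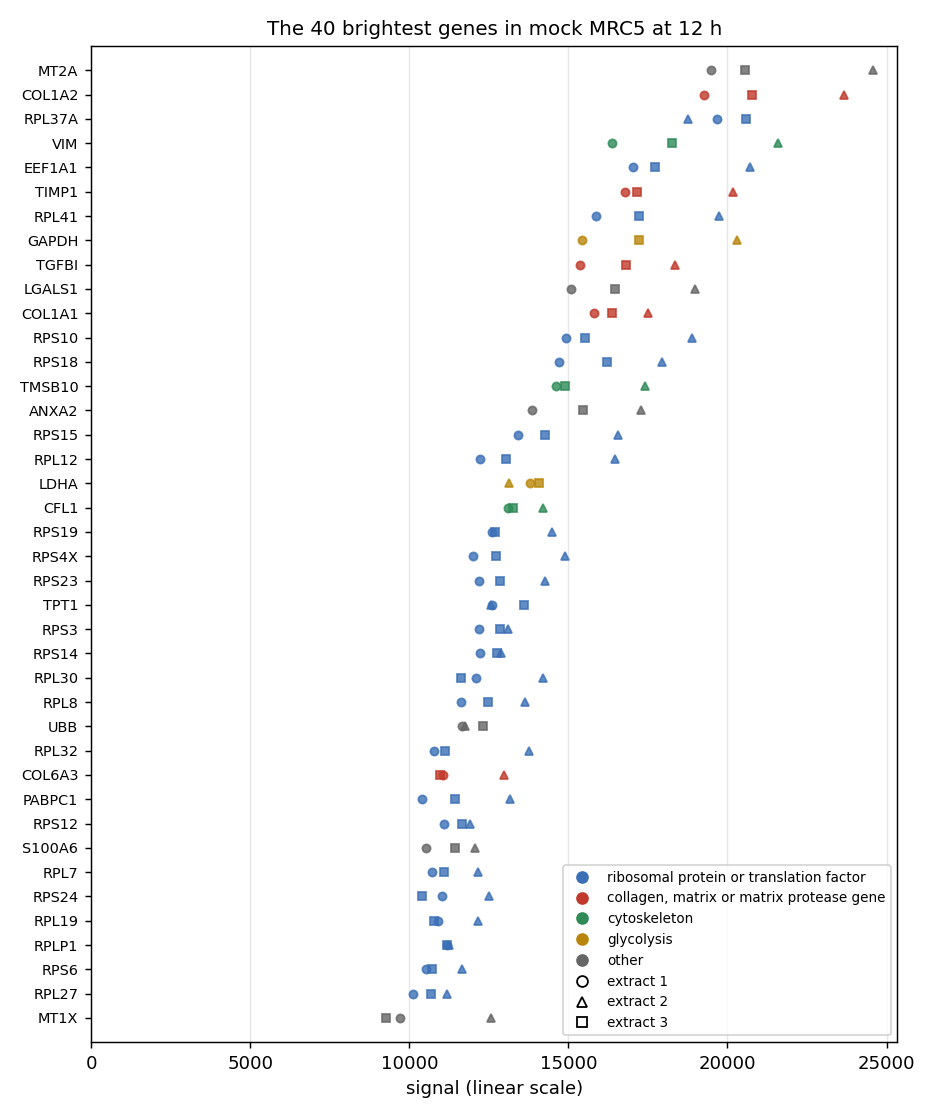
Signal (horizontal axis, linear scale) of the 40 genes with the highest mean log2 signal in mock 12 h, in rank order from the top. Each marker is 1 extract and its colour the gene's class. MT2A and COL1A2 stand at the top, ribosomal proteins and translation factors fill most of the rows, and the triangles of extract 2 lie to the right of the other extracts in most rows.

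Most fibrillar collagens were bright. Of 8 measured, 5 were bright, 2 lay between the limits and 1 was dim, and the median percentile was 91.7. After the type I chains came COL5A2 (3962 ± 363), COL5A1 (1999 ± 104) and COL3A1 (1779 ± 135), which form the type V and type III fibrils that mix with type I. The extracts gave COL3A1 signals of 1929.96, 1738 and 1669.7, and COL11A1 signals of 1076, 1109 and 1095, with little spread. COL2A1, the cartilage collagen, was dim at the 26.05 percentile. Among 16 other collagens 2 were bright (12.5%), the type VI chain COL6A3 (11670.3 ± 1144) and the basement membrane chain COL4A1 (3939.9 ± 339). Another 6 were dim (37.5%), and both shares were near those of all named genes, 9.66% and 39.3%. The dim chains were COL4A3 and COL4A4 of specialised basement membranes, COL9A1 and COL9A3 of cartilage, COL10A1 of hypertrophic cartilage, and COL19A1.

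The enzymes that make and cross-link collagen were bright as a group, 12 of 17 with a median percentile of 96.3 and 1 dim. SERPINH1, the collagen chaperone HSP47, gave 8597, 9834 and 8650.2. The prolyl hydroxylase subunits P4HB, P4HA1 and P4HA2 lay at the 97.5, 96.3 and 97.1 percentiles. The lysyl hydroxylases PLOD1, PLOD2 and PLOD3 were all bright, as were the lysyl oxidases LOX, LOXL1 and LOXL2. LOX gave 4351, 4357 and 4379.7, a spread of 15.3 around a mean of 4363. PLOD2, which hydroxylates the collagen telopeptides, was lower in extract 3, with 2776, 2788 and 2027. The dim member was PCOLCE2, an enhancer of procollagen C-proteinase, at the 30.4 percentile, whereas its relative PCOLCE was bright at 90.9.

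Matrix glycoproteins covered nearly the whole range, with 12 of 43 bright, 12 dim and a median percentile of 79.1. Below TGFBI came CCN2, a matricellular protein induced by TGF-beta and stretch, with 9248, 6714 and 8569.9. SPARC, a collagen-binding matricellular protein, gave 7698, 8613 and 6656, and the microfibril gene FBN1 gave 5139.9, 4877 and 5455. Extract 2 was lowest for CCN2 and FBN1 and highest for SPARC, so the extracts had no common order across these genes. LTBP1, CCN1, LAMC1, POSTN, TNC, NID2, MFAP2 and ECM1 were the other bright members. ELN, the precursor of elastic fibres, was dim with 14.8, 33.1 and 13.3, and COMP, SPP1, CCN5 and CCN4 were dim as well. Of the other genes of elastic fibres, FBN1, FBN2, FBLN5 and EFEMP2 lay at the 97.7, 86.6, 86.8 and 89.1 percentiles, against 14.8 for ELN.

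Of 22 proteoglycans and hyaluronan genes 5 were bright: the hyaluronan receptor CD44, BGN, SDC4, SPOCK1 and VCAN. BGN, or biglycan, gave 4046, 3974 and 3959, whereas the small leucine-rich relatives FMOD, LUM and ASPN lay at the 50.4, 47.9 and 17.9 percentiles. VCAN varied more than most genes of its level, with 1708, 1294 and 2268. Among 32 matrix proteases and inhibitors 10 were bright and 6 dim. The gelatinase MMP2 gave 3952, 3868 and 3578 and the interstitial collagenase MMP1 gave 3045, 2561 and 2849.7. MMP14, the membrane-bound activator of pro-MMP2, lay at the 86.4 percentile and the stromelysin MMP3 at 63.96. MMP10, MMP12, MMP13, MMP15 and MMP17 were dim. Of the inhibitors, TIMP1 and TIMP3 were bright, TIMP2 lay at 83.9 and TIMP4 was dim at 10.2. SERPINE2, an inhibitor of thrombin and urokinase, ranked 90 with 7072, 6671 and 7352, and both plasminogen activators, PLAU and PLAT, were bright.

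The IGF-binding proteins, which hold insulin-like growth factors outside the cell, were bright in 5 of 7 cases. IGFBP4 gave 9132, 10560.2 and 9258 and IGFBP3 gave 8482, 7541 and 8856. IGFBP5, IGFBP2 and IGFBP7 were the other bright members, IGFBP6 lay just under the limit at 89.6, and the liver-enriched IGFBP1 was dim with 21.1, 39.7 and 17.2. The ligand IGF1 was dim at 27.5, and of the receptors IGF2R lay at 86.99 and IGF1R at 76.97, with a further IGF1R probe set at 33.3.

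**Figure D3:**
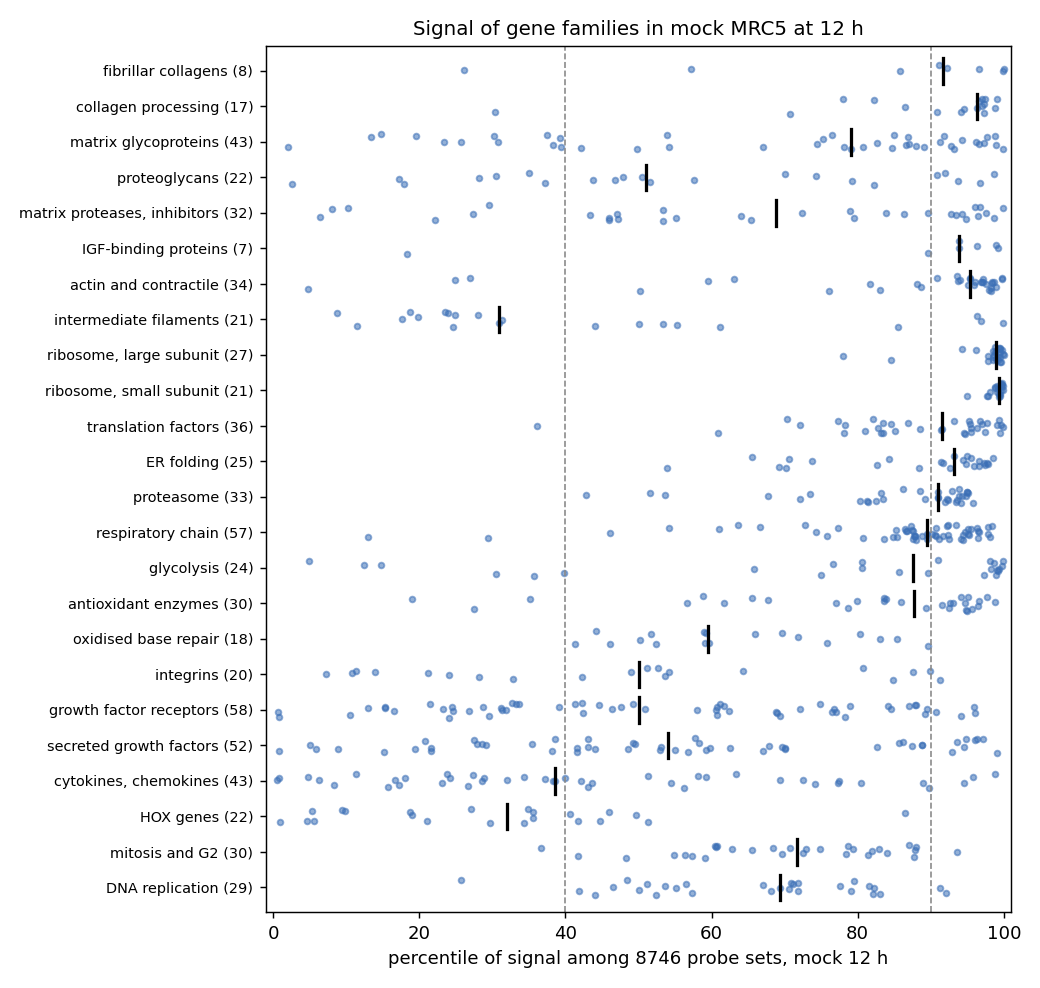
Percentile of signal in mock 12 h (horizontal axis) for the measured genes of each family, each point 1 gene, with the number of genes in brackets and the black bar at the family's median. Dashed lines mark the dim limit at 40 and the bright limit at 90. Ribosomal proteins lie against the right edge, oxidised base repair genes lie between the lines, and cytokines and HOX genes lie mostly on the left.

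Actin and contractile genes were bright in 23 of 34 cases, with 3 dim and a median percentile of 95.4. TAGLN, an actin-bundling protein of smooth muscle and myofibroblasts, gave 7965, 8965 and 7810.1, and ACTA2, or alpha smooth muscle actin, 3457, 3538 and 3508. The probe set of ACTG2, the enteric actin, gave 6019.6, 6706 and 5992. Its sequence is close to that of ACTA2, and the signals of the 2 genes cannot be told apart with certainty. Myosin light chains MYL6 and MYL9, tropomyosins TPM1, TPM2 and TPM4, vinculin (VCL) and ACTN1 were all at or above the 97.03 percentile. Of the markers of differentiated muscle, MYH11, smooth muscle myosin, gave 10.6, 4.81 and 8.95 and desmin (DES) gave 62.6, 30.2 and 33.2. MYH11 and DES were thus dim on the mean of the arrays, while CNN1, SMTN and LMOD1 lay at the 81.7, 83.1 and 59.5 percentiles.

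The CArG box is the binding sequence of serum response factor, which drives many actin cytoskeleton genes, and it was searched for because these genes were bright together. In the 250 bases before the start, 8 of 29 contractile genes with an entry held it (27.6%). The share was 2.13% of the 6200 named genes and 1.16% of all promoters in the table. It was 1.62% below the 20th percentile of signal, 2.64% between the 20th and 40th and 1.68% between the 60th and 80th. It was 2.59% between the 80th and 90th percentiles, 3.5% at or above the 90th and 1.89% (1 of 53 genes) above the 99th. Whether the box goes with signal was not tested. A match at any listed start counted, and TPM4, ACTC1, ACTN1 and SMTN had several starts. Among named genes with 1 listed start the share was 1.46%. Only boxes with nothing but A or T between CC and GG were counted. The box has the same pattern on either strand. It is shown in capitals, in 50 bases around it, for CNN2 (chr19:1026499-1026548, plus strand), TPM4 (chr19:16067345-16067394, plus strand) and MYLK (chr3:123620613-123620662, minus strand), which were bright, and for ACTA1 (chr1:229434162-229434211, minus strand), the skeletal muscle actin, which was dim.
CNN2: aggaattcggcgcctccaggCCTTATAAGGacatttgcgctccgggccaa
TPM4: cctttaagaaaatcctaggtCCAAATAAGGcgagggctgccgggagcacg
MYLK: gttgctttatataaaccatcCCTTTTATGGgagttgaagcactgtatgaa
ACTA1: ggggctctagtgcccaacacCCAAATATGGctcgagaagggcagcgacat
The others with a match were ACTG2, ACTC1, ACTN1 and SMTN. Bright genes without a match in this window included ACTA2, TPM1, VCL, MYH9 and CFL1, though a variant box would have been missed. SRF itself, the factor, lay at the 57.3 percentile.

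Of 21 intermediate filament genes only VIM, LMNA and KRT18 were bright, and 12 were dim, among them DES, GFAP, NEFL and NEFM. KRT18, a simple epithelial keratin, gave 3553, 3579 and 3786, while its usual partner KRT8 gave 109, 118 and 122. Both probe sets end in _x_at. Of 8 tubulins 4 were bright, TUBB4B, TUBA1A, TUBB and TUBB3. Among 16 S100 calcium-binding proteins, S100A6, S100A11, S100A10 and S100A13 were bright and 9 were dim, including the myeloid S100A8 and S100A9. S100A4, often called fibroblast-specific protein, lay below the bright limit at 85.8 with 1109, 1159.7 and 1023. ANXA2 (15531 ± 1703), the membrane-binding partner of S100A10, ranked 15, and the annexins ANXA1, ANXA5, ANXA6 and ANXA11 and the galectin LGALS3 were bright too.

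Ribosomal proteins stood at the top of the ranking almost without exception. Of the large subunit 25 of 27 were bright with a median percentile of 98.99, and of the small subunit 21 of 21 with a median of 99.4. RPL38 and RPL31 were the members below the limit, at 1048, 983 and 965 and 603, 852 and 559. The lowest of the small subunit was RPS25 with 3321, 2426 and 2859. Among 36 translation factors 19 were bright, and the single dim gene was the cap-binding protein EIF4E, with 87.7, 58.2 and 85.8. Some other initiation factors were higher, such as EIF4B, EIF4G2 and EIF4H at 97.4, 97.7 and 95.6. A single probe set stood for EIF4E, so its place rests on that probe set.

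The machinery that folds and degrades protein was bright as well. In the endoplasmic reticulum 16 of 25 genes were bright and none dim, led by RPN2, a subunit of the oligosaccharyltransferase, with 6704, 6957 and 7101. Of the cytosolic and mitochondrial chaperones 10 of 18 were bright, with HSP90AA1 first at 9796, 9286 and 9121. The proteasome had 18 of 33 bright and none dim, or 1 dim, PSMB8, without extract 3. Its constitutive catalytic subunit PSMB5 gave 3209.8, 3399 and 3402, whereas the interferon-inducible counterparts PSMB8, PSMB9 and PSMB10 were the lowest 3 of the list, at the 42.8, 51.5 and 53.6 percentiles. PSMB8 also differed between extracts, with 118, 56.7 and 195.

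Energy genes were mostly bright or middling for the isoforms found in most tissues and dim for several forms known from muscle, testis, liver or blood cells. Glycolysis had 11 of 24 genes bright and 6 dim, and the bright ones were hexokinase HK1 (90.9), PFKP, ALDOA, TPI1, GAPDH, PGK1, PGAM1, ENO1, PKM, LDHA and LDHB. LDHA gave 13800.5, 13149 and 14075. The dim members were LDHC and GAPDHS of testis, ENO3 and PGAM2 of muscle, PKLR of liver and red cells, and HK3 of white cells. Of 57 respiratory chain and ATP synthase genes 27 were bright and 2 dim, led by ATP5F1B with 7016, 6517 and 6665. The muscle form COX7A1 was dim with 12.6, 26.3 and 13.004 beside its general counterpart COX7A2 with 2623, 2764 and 2801, and COX6A2 lay at 46.1 beside COX6A1 at 97.9. The other dim gene was ATP5F1C, with 97.2, 66.7 and 23.8. It has 1 probe set here.

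Of 30 antioxidant enzymes, 14 were bright and 3 dim in these unexposed cells. The peroxiredoxin PRDX1 gave 7444, 7871 and 6922 and the cytosolic superoxide dismutase SOD1 gave 4990.2, 5068 and 5091, an SD of 52.7 around a mean of 5049.6. TXN, TXNRD1, GPX1, GPX4, GSTP1, GSTO1, PRDX3, PRDX4 and PRDX6 were also bright. Catalase (CAT), which breaks down hydrogen peroxide in peroxisomes, gave 1072, 1273 and 998, NQO1 lay at 83.7, and HMOX1, the inducible haem oxygenase, at 67.7 with 352, 423 and 369. The dim members were GPX2, TXNRD2 and GSTA1, of which GPX2 and GSTA1 are known from gut and liver.

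Genes for the repair of oxidised and damaged bases sat in the middle of the ranking: 0 of 18 were bright and 0 were dim, with a median percentile of 59.5. Both counts rest on genes close to the limits, since NUDT1 was dim without extract 2 and APEX1 was bright without extract 3, 1 gene in each case. OGG1, whose glycosylase cuts 8-oxoguanine out of DNA, gave 156, 144 and 176, close to the array median of 157 to 164. MUTYH, which removes adenine paired with 8-oxoguanine, gave 263, 226 and 252, and NUDT1, which clears the oxidised nucleotide from the precursor pool, gave 85.02, 125 and 97.9. NUDT1 had the lowest percentile of the 18, 41.3, and its extract 1 lay below the dim limit of 94.2. APEX1, the endonuclease that acts after a glycosylase, was the highest with 1477, 1807 and 1359, just under the bright limit. MPG, PCNA and PARP1 followed at 85.4, 83.1 and 80.3, and NTHL1 and XRCC1 lay at 46.1 and 44.2.

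At the cell surface, 4 of 15 antigen presentation genes were bright, 7 lay between the limits and 4 were dim, with a median percentile of 55.9. Class II genes were dim or in the middle of the range. The bright ones were B2M and the class I genes HLA-B, HLA-C and HLA-G, and B2M gave 6153, 6741 and 5705. The HLA probe sets share sequence, so their separate values are uncertain. HLA-DRA gave 16.4, 16.7 and 16.7 and the invariant chain CD74 5.72, 10.8 and 50.5, both dim. Among integrins 1 of 20 was bright, ITGA5 of the fibronectin receptor, with 1744, 1880.1 and 1784. ITGAE, also a leukocyte subunit, lay at the limit at 89.96, and ITGAV and the collagen receptor subunit ITGA2 followed at 87.6 and 84.8. The leukocyte subunits ITGB2, ITGAL, ITGAM, ITGAX and ITGB7, unlike ITGAE, were dim. ITGAE lay within 1 percentile point of the limit, and the count of bright integrins was 2 without extract 1 or without extract 3, and 3 without the probe sets ending in _s_at or _x_at. Of 30 other adhesion genes CD63, THY1, CD59, CD81, ALCAM, BSG and CD9 were bright. The mesenchymal cadherins CDH11 and CDH2 lay at 89.4 and 68.7, and the epithelial cadherin CDH1 at 4.18.

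Receptors for growth factors were spread over the whole range, 4 of 58 bright (6.9%) and 22 dim (37.9%). These shares were close to those of all named genes, 9.66% and 39.3%. The bright ones were TNFRSF12A, the receptor of TWEAK, AXL, the receptor of GAS6, TGFBR2 and PDGFRA. PDGFRA gave 1745, 1723 and 1667 and PDGFRB 906, 1039 and 947. AXL gave 3345, 3464 and 3595, and its ligand GAS6 ranked 42 at 8731, 12354 and 9901. FGFR1 lay at 87.99 while FGFR2, FGFR3 and FGFR4 were dim, and ERBB2 lay at 76.8 while ERBB3 and ERBB4 were dim. The endothelial receptors KDR, FLT1, FLT4, TEK and TIE1 were dim. EGFR gave 141, 176 and 141 on its only probe set.

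Among 52 secreted growth factors and their antagonists 8 were bright (15.4%) and 16 dim (30.8%), against 9.66% and 39.3% of all named genes. SFRP1, a soluble Wnt antagonist, gave 9180.5, 8996 and 9109, and GREM1, a BMP antagonist, gave 4434, 4687 and 4415. WNT5A gave 3996, 3388 and 3753, and the Wnt antagonists DKK1 and DKK3 were bright with BDNF, ADM and PDGFC. The 3 probe sets of DKK3 lay between 0.846 and 96.1, and it is counted by the highest. TGFB1 lay at 88.9, VEGFA at 87.4, FGF2 at 67.9 and FGF7 at 44.04. Of 43 cytokines, chemokines and related mediators 3 were bright (6.98%), MIF, PTGS1 and CCL2, and 23 were dim (53.5%). MIF gave 7630.3, 8126 and 8104 and the monocyte chemokine CCL2 2833, 2560.4 and 2679.99. LIF and PTX3 lay just below the limit, IL6 at 74.2, and the neutrophil chemokines CXCL1, CXCL2, CXCL3, CXCL5, CXCL6 and CXCL8 were all dim.

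Transcription factors of mesenchyme and lung were bright in 2 of 37 (5.41%) and dim in 14 (37.8%), against 9.66% and 39.3% of all named genes. FOXF1, a forkhead factor of lung and gut mesenchyme, gave 2452, 2239 and 2363, and FOXF2 gave 1653, 1679.98 and 1608. They were the bright genes of this list. TCF21, TBX5 and TBX2 lay at 71.2, 59.9 and 62.7, and TBX4, another T-box gene of lung mesenchyme, was dim at 13.9, 11.1 and 7.98. SNAI2 and PRRX1 lay at 86.3 and 67.8. NKX2-1 and FOXA2 of lung epithelium were dim. Of 22 HOX genes none was bright and 15 were dim, while 1, HOXB2, was bright when the probe sets ending in _s_at or _x_at were left out. HOXB2 was the highest at 1253, 1079 and 1143, and the next, HOXC4, lay at 51.2.

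Stress and early response factors were higher, with 14 of 41 bright and 1 dim, MYCN. HIF1A gave 5134, 4255 and 4973, HMGA1 gave 4640.1, 4803 and 4409, and HMGA2, an architectural factor of embryonic and dividing cells, 2862, 2743 and 2824. ATF4, JUND, CEBPB, CEBPD, ID1, STAT3, FOS and NFE2L2 were bright. NFE2L2, or NRF2, which drives antioxidant genes, lay at 90.7. FOS gave 1767, 2120.1 and 1914, EGR1 929.8, 881 and 831 and JUN 235, 266 and 178. MYC lay at 82.4.

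Genes of the cell cycle lay mostly above the middle of the ranking. Of 30 mitosis and G2 genes 1 was bright, PTTG1 (securin) with 2122, 2518 and 2343, and 1 was dim, KIF23, with a median percentile of 71.7. Without extract 2, or by the median of the signals, 2 were dim. MKI67, the proliferation marker, gave 437, 429 and 401. Of 29 DNA replication genes, TYMS with 1913, 2026 and 1874 and RRM2 with 1689, 1943 and 1794 were bright and ORC1 was dim, with a median percentile of 69.3. These signals come from whole cultures, in which fewer dividing cells and less transcript per dividing cell cannot be told apart. Among the genes listed with the G1 cyclins and brakes, CCND1, CCND2, CDK4, CDKN1A and GAS6, the AXL ligand described above, were bright. CDKN1A, or p21, gave 2148, 2979 and 2089, CDKN2A 253, 294 and 289, and TERT, the catalytic subunit of telomerase, was dim with 23.7, 24.1 and 31.8.

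Markers of 15 other cell types, with 207 genes measured, had a median percentile of 24.1, and 160 were dim and 2 were bright. The bright ones were KRT18, described above, and CAV1, the caveolin of alveolar type 1 cells, which is also known from fibroblasts, with 7273, 8146 and 7585. Lists of related mesenchymal cells were counted apart from these. Of the smooth muscle and pericyte genes 1 of 12 was bright (8.33%) and 5 were dim (41.7%), with a median of 55.1. These values were close to those of all named genes, 9.66%, 39.3% and a median of 50.45. The bright one was ACTG2, whose signal cannot be told from that of ACTA2 with certainty. Of the cartilage and bone genes 0 of 12 were bright and 8 were dim, with a median of 24.4. The epithelial EPCAM and CDH1, the endothelial VWF and CDH5, the leukocyte PTPRC and the hepatocyte ALB all lay at or below the 17.7 percentile. These are single genes, and their lists were not uniformly dim. Among 17 epithelial genes 10 were dim, 6 lay between the limits and 1 was bright. Among 19 neuronal and glial genes 11 were dim and 8 lay between the limits. Dim genes made up more of other lists, with 11 of 14 endothelial, 17 of 19 hepatocyte and 19 of 20 striated muscle genes. The alveolar surfactant genes SFTPC, SFTPB and SFTPD lay at 45.5, 21.7 and 8.54. No list of another cell type had more than 1 bright member. After KRT18 and CAV1, the highest of the 207 were DSP of epithelium (80.3), MITF of melanocytes (80.1) and ENO2 of neurons (76.6), and the highest cartilage gene was SOX9 (88.3). SOX9 stood among cartilage genes with COL2A1, MATN1 and COMP dim and ACAN at 46.8. Of 6 melanocyte genes 3 were dim, SOX10 and MLANA among them, and 3 lay between the limits, MITF included, with a median of 38.2.

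**Figure D4:**
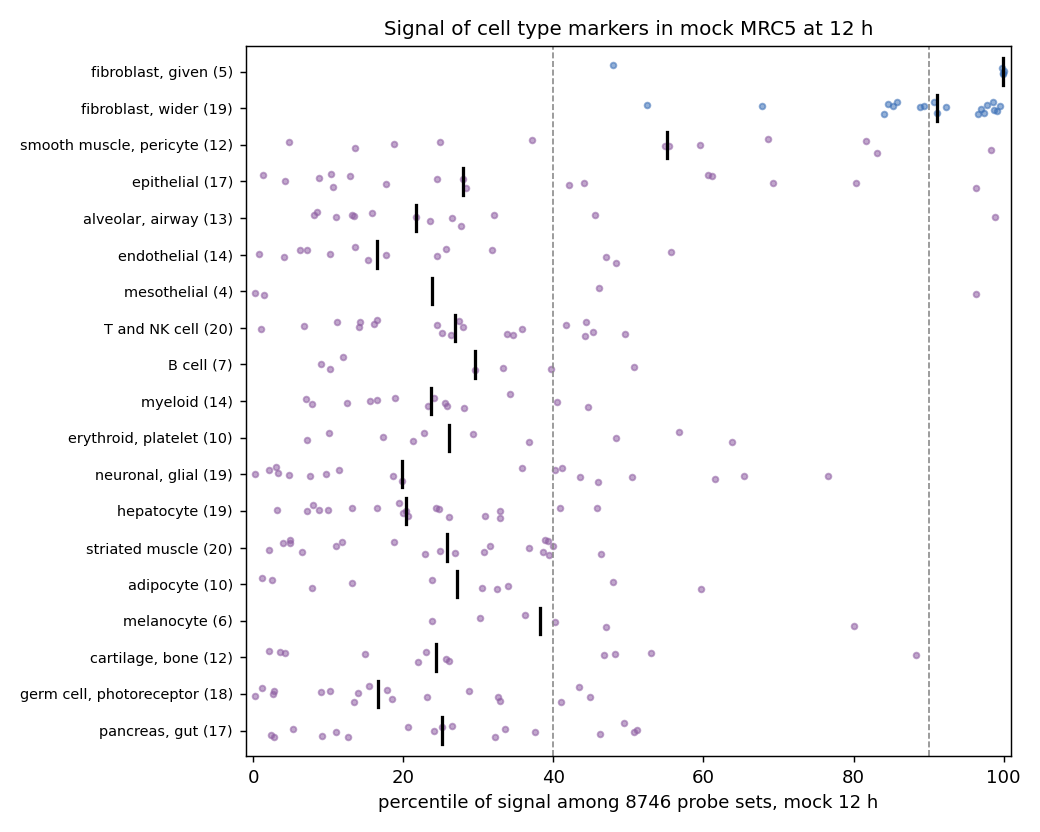
Percentile of signal in mock 12 h (horizontal axis) for markers of fibroblasts (blue) and of other cell types (purple), each point 1 gene, with the number measured in brackets and the black bar at the median. Dashed lines mark the limits at 40 and 90. Fibroblast medians lie above 90, and the medians of other lists lie below 40 apart from smooth muscle and pericyte at 55.1.

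The extracts differed little where signals were high. The median SD of log2 signal over the 3 extracts was 0.602 below the 20th percentile, 0.215 between the 40th and 60th percentiles and 0.0934 above the 90th. Of 5248 probe sets above the 40th percentile, 55 differed by 2-fold or more between extracts 1 and 2, 40 between 1 and 3 and 62 between 2 and 3. None of the 875 above the 90th percentile did. The Spearman correlation across the 8746 probe sets was between 0.9716 and 0.978 for the 3 pairs of arrays, a description only, since probe sets are not independent replicates. In the top hundredth, the median deviation from the mean was 0.12 on the log2 scale for extract 2, -0.08 for extract 1 and -0.03 for extract 3, so extract 2 led for many of the genes above. The array medians, 156.8, 164.2 and 157.1, differed less. The 3' to 5' signal ratio of the ACTB control probe sets was between 0.889 and 0.995, and of the GAPDH control between 0.779 and 0.826.

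The most variable gene at or above the 60th percentile was MNT, a MYC antagonist, with 364, 990.3 and 564. ERO1A, an oxidase of the endoplasmic reticulum, gave 568, 257 and 271, so extract 1 stood apart from the other 2, and UGGT2, a folding sensor of the same compartment, gave 523, 205 and 359. SNAI1, a factor of mesenchymal transition, gave 201, 417 and 276. The remaining 11 of the 15 most variable genes were GRK5, UBL3, CREBBP, NRGN, CSNK2A2, DHRS3, VPS52, MAN1A1, MRPS7, SMARCD1 and ADGRG1, and the highest extract exceeded the lowest by 2.01-fold to 2.28-fold in them. Of the 15, extract 2 was the lowest in 10 and the highest in 4. Among the genes often used as references, YWHAZ gave 4421, 4409 and 4269.6 and TBP 212, 209.8 and 242, while GUSB ranged over 262, 355 and 415.

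On the mock 6 h array the same 8746 probe sets were measured, and their ranks were compared with those of the mock 12 h arrays. Time, array type and sample differ together between them and cannot be told apart. The Spearman correlation across probe sets was 0.9489 for the mean of the 3 arrays, and 31 of the brightest 50, 73 of the brightest 100 and 408 of the brightest 500 probe sets were shared. Of 3831 probe sets at or above the 60th percentile on either, 85 (2.22%) were at least 20 percentile points lower at 12 h and 16 (0.418%) were at least 20 points higher. The genes with the largest falls in rank included matrix genes: ASPN, at 17.9 against 70.9 at 6 h, ELN at 14.8 against 66.1, and LUM at 47.9 against 88.8. LUM gave at most 176 on the 3 mock 12 h arrays and 1993 on the 6 h array. The others were ITPR3, FBXO5, ADK, RP2, LGMN, RAD51AP1 and KIF23. Higher at 12 h were the early response gene FOSB, at 71.02 against 26.3, and CCL2, at 94.5 against 72.3, together with COLEC10, GALNT6, TMPRSS15, DDX17, H2BC21, GP1BA, ALDOC and TAF15. FOSB gave 429.7, 455 and 459.6 at 12 h and 34.3 at 6 h.

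Cell cycle genes ranked lower on the 12 h arrays. Of 30 mitosis and G2 genes 28 had a lower percentile at 12 h and 2 a higher one, with a median difference of -10.0 percentile points. All 29 DNA replication genes were lower, with a median difference of -8.94 points. Over all 7700 genes 47.1% were lower and the median difference was 0.389 points. CDK1 lay at 59.1 at 12 h against 89.2 at 6 h, with 296, 242 and 213 on the 3 arrays and 2042 on the 6 h array. RRM2 lay at 91.3 against 94.97 and MKI67 at 69.6 against 73.2. The differences were small for PTTG1 and MKI67 and largest for KIF23, CDK1 and TTK. With 1 array at 6 h, the spread behind these differences is unknown on that side.

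**Figure D5:**
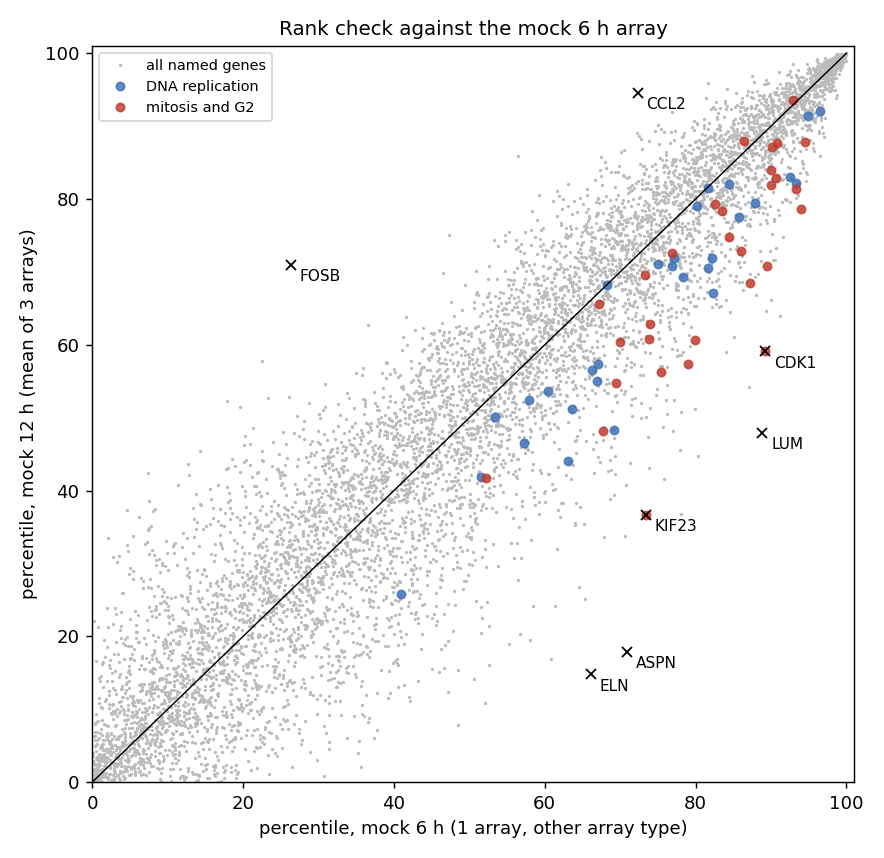
Percentile of signal of each named gene on the mock 6 h array (horizontal axis, 1 array of another type) and in mock 12 h (vertical axis, mean of 3 arrays), with the line of equal rank. Red points are mitosis and G2 genes, blue points DNA replication genes, and crosses mark genes named in the text. Nearly all red and blue points lie below the line, LUM, ELN and ASPN lie far below it and FOSB and CCL2 above it.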

How the data were processed

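Biotin-labelled cRNA from total RNA of mock-treated MRC5 cells was hybridised to single-colour oligonucleotide arrays, per the labels' protocols. The authors deposited linear intensity values, 1 for each probe set of an array. Per the submitters' processing notes MAS5 was used, with a version not given in the sources used here. MAS5 subtracts mismatch signal and scales each array, so low values are noisy and no detection calls were used here. Without the controls and the extreme values, the trimmed mean of the 3 arrays was 491.4 to 491.6. The number of arrays limits the precision.

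From the 3 mock 12 h arrays the mean log2 intensity, its SD and its percentile among 8746 probe sets were computed, after 47 control probe sets were left out. Gene symbols came from the platform annotation, in which 7840 probe sets had 1 symbol, 388 several and 518 none. Only those with 1 symbol were used for gene names. The members and the 54 gene lists, with 1407 genes of which 1123 were measured, were chosen with earlier results of these data known. Every list member could be named, with the 50 brightest genes, the 15 most variable at or above the 60th percentile, and the 10 with the largest rank differences each way from the 6 h array. Other genes named were chosen after their values were seen. Promoters of 6200 genes came from a RefSeq table of GRCh38.p14, which listed several starts for 1820 of them. Protein features, which had been planned, were not used here.

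Nothing was tested between groups, since no treated array was used. Ranking and counting were tested on simulated data. Python 3.11.15 with pandas 2.3.3, numpy 2.4.6, scipy 1.17.1 and matplotlib 3.10.9 was used.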

Additional observations from a re-analysis of the deposited data

How the results depend on the processing

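Quantile normalization, median centring, the median of the signals, their linear mean and adding the 20th percentile (28.92) before log2 left 305 to 307 list genes bright and 338 to 340 dim, and kept 49 or 50 of the 50 brightest genes. Leaving out each extract in turn gave 304 to 309 bright and 338 to 340 dim list genes, 48 to 50 of the brightest 50 and correlations with the 6 h array of 0.9441 to 0.95.

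Leaving out probe sets ending in _s_at or _x_at removed 3678 of 8746 and left 614 of the 1123 list genes, with the limits taken over the remaining probe sets. Of 108 counts of bright or dim genes by list, 57 moved by over 1.5 times. Most fell with the genes measured, while bright integrins rose from 1 to 3 and bright HOX genes from 0 to 1. List genes then numbered 162 bright (26.4% against 27.2%) and 189 dim (30.8% against 30.2%), 5 of 8 fibroblast markers were bright (62.5%, as with all probe sets), and 95 of 131 markers of other cell types were dim (72.5% against 77.3%). In the brightest twentieth there were 192 list genes. The rank agreement was 0.9392 without those probe sets and 0.9169 over probe sets at or above the 40th percentile. The median SD between extracts, 0.218 on the log2 scale, was 0.141 over probe sets at or above the 40th percentile. With an extract left out it was 0.144 to 0.191. A median SD of fewer values tends to be lower, so these are not directly comparable with 0.218. The share of pyrimidine starts in the top hundredth, 37.7%, was 44.2% among genes with 1 listed start and 4.0% without ribosomal proteins and translation factors, alternatives chosen after seeing the data. No paired analysis was possible because no treated array was used and no result came from a test. Low signals limit what can be said of dim genes, and the extracts may be technical replicates of 1 culture.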

Other observations

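Some of the brightest genes belonged to none of the functional gene lists. UBB, a polyubiquitin gene, ranked 28 with 11671, 11755 and 12329, CKAP4, a membrane protein of the endoplasmic reticulum, ranked 50 with 8884, 10212 and 9309, and SLC25A3, the mitochondrial phosphate carrier, ranked 52 with 8608, 10582 and 8589. They were followed by BEX3, the adaptor SHC1, the septin SEPTIN9, the RNA-binding protein YBX1 and MAGED1, at ranks 61, 66, 70, 80 and 82. CAPN2, SLC38A2, RTN4, OAZ1, GARS1, MXRA7 and RTL8C completed this set within the brightest 100, beside MT2A, MT1X and CAV1. They do not form a single pathway by name.

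For 122 genes with more than 1 probe set, the lowest and highest probe set lay a median of 10.9 percentile points apart. In 13 of them the gap was 40 points or more. The probe sets of DKK3 lay between 0.846 and 96.1, those of NACA between 19.4 and 98.5, of FASN between 5.07 and 81.8, and of CALD1 between 32.3 and 93.6. For DKK3 and for IGF1R, with probe sets at 33.3 and 76.97, the place given above is that of the brightest probe set, and the lowest would have put both among the dim genes. In 56 genes the gap was 10 points or less.

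TATAAA, searched for on the gene strand from 45 to 11 bases before the start, was found in 9.2% of genes below the 20th percentile, in 1.98% between the 80th and 90th and in 11.3% of those above the 99th. The last share is 6 of 53 genes. GGGCGG on either strand was found in 46.7% below the 20th percentile, in 78.1% between the 60th and 80th percentiles and in 79.2% above the 99th.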
